A study of Arabidopsis thaliana with 18 samples.

Results

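Of the 19755 probe sets tested in developing seeds of Arabidopsis thaliana, 22 are assigned by the ATH1 array annotation to a single gene whose symbol has the form of a cytochrome P450 name (CYP, a family number, a subfamily letter and a member number). They cover a fraction of the family, since a RefSeq gene table of the assembly TAIR10.1 holds 236 genes with such symbols. Of the 22 members 19 belong to the subfamily CYP71B, and the other 3 are CYP78A9, CYP79A2 and CYP84A4. Each member is a different gene with 1 probe set. RefSeq lists 21 of them as protein-coding and CYP71B27 as a transcribed pseudogene, and CYP71B30P is named a pseudogene in its symbol.

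Seeds of the natural accession C24 (3 groups) and of the natural accession Col-0 (3 groups) were collected 8-9, 10-11 and 12-13 days after flower opening, from plants without any treatment or transgene in the labels. Each of the 6 groups holds 3 arrays, 18 in all, and each array was made from the seeds of 48 siliques pooled over 6 plants. With 6 plants per accession in each of 2 experiments, pools shared plants, so p-values measure the spread between pools and not between independent plants. Values are log2 levels per probe set, so that a difference of 1 is a doubling, and they are given as mean ± SD of 3 arrays. Differences carry the standard error (SE) of a limma model fitted to all arrays, and a member was called when its Benjamini-Hochberg adjusted p over all probe sets lay under 0.05.

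Cytochrome P450 enzymes are haem proteins that sit mostly in the membrane of the endoplasmic reticulum, take electrons from a P450 reductase and insert an oxygen atom into small molecules. In plants they make and break down hormones, pigments, surface polymers and defence compounds. CYP78A enzymes act on organ growth, and CYP78A9 in particular promotes growth of fruits and seeds when its level is raised. CYP79 enzymes turn amino acids into aldoximes, the entry into glucosinolates, and CYP79A2 uses phenylalanine. CYP84A4 acts in the synthesis of arabidopyrones from phenylpropanoids. Of the CYP71B enzymes, CYP71B6 converts indole-3-acetonitrile and CYP71B31 oxidises linalool in flowers. No role is given here for the other CYP71B members.

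Across arrays the 25th percentile was 4.41 to 4.57, the median 6.05 to 6.17 and the maximum 14.09 to 14.33. No measure of background comes with the table, so the lowest 25th percentile, 4.41, was taken as a line under which a level may be background and a change may be understated. In whole seeds, fewer cells of a type and less RNA per cell cannot be told apart. Both named seed markers, the storage protein genes AT1G03890 and PAP85, had lowest array values of 7.90 and 11.16. AT1G03890 was higher in C24 by 1.81 at 8-9 days. Both markers rose from 8-9 to 12-13 days in each accession, with list medians of 1.93 in C24 and 2.93 in Col-0. For the difference between these changes, C24 less Col-0, 1 of them was called with a negative value (list median -0.99). All 4 named seed coat markers, of 7 listed, fell over the stages in both accessions. Of these 4, 3 were lower in C24 at 8-9 days (list median -0.80), 1 was lower at 10-11 days and 1 was higher at 12-13 days, and 3 were called with a positive interaction over both steps. Of 6 endosperm markers 3 were named, AT1G71250 at 8.98 to 12.03 and AGL62 and MPC at 4.50 or less on all arrays. At 12-13 days AT1G71250 and AGL62 were lower in C24, with differences of -0.58 and -0.27. For the silique wall, the tissue removed by dissection, the marker ALC, the only one of 6 named, ranged from 5.64 to 6.53. From 8-9 to 12-13 days ALC fell in Col-0 (-0.36), and its change in C24 (-0.23) was not called. The first principal component, with 73.2% of the variance, ordered the arrays by stage. At 10-11 days its scores ran from 22.1 to 27.4 in C24 and from -1.14 to 15.7 in Col-0, and at 8-9 days from -74.7 to -68.9 in C24 and from -83.7 to -79.0 in Col-0. A measure of RNA quality, the 3' minus 5' level of control genes, moved with stage and accession. Its means at the 3 stages were 0.54, 0.97 and 0.57 in C24 and 0.29, 0.76 and 1.21 in Col-0 for one GAPDH control. For one actin control they were 2.02, 1.78 and 1.20 in C24 and 1.89, 1.44 and 1.34 in Col-0. A second GAPDH measure had 0.27, 0.32 and 0.18 in C24 and 0.15, 0.18 and 0.45 in Col-0. A second actin measure had 1.85, 1.58 and 1.42 in C24 and 1.87, 1.41 and 1.73 in Col-0. At 8-9 days the order of the accessions differed between the actin measures. The part of these measures and markers in the results that follow was not tested.

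Between 8-9 and 12-13 days, 9 of the 22 P450 probe sets rose (29.4% of all probe sets did) and 3 fell (30% of all) in C24, and 8 rose (30.1% of all) and 4 fell (30.5% of all) in Col-0. This is 54.5% of the members in each accession, against 59.4% of all probe sets in C24 and 60.6% in Col-0, so the share of members that changed lay near that of all probe sets. The median change of the members was 0.16 in C24 and 0.13 in Col-0, against 0.03 and 0.02 over all probe sets. Higher at 12-13 days in both accessions were 8 members (CYP78A9, CYP71B37, CYP71B26, CYP71B34, CYP71B35, CYP71B38, CYP84A4 and CYP79A2), against 23.1% of all probe sets. Lower in both were CYP71B28, CYP71B6 and CYP71B5, against 25.2% of all. CYP71B27 was called only in C24 and CYP71B22 only in Col-0, and 9 members were called in neither. The changes ran from -0.99 for CYP71B5 to 5.99 for CYP78A9 in C24, and from -0.58 for CYP71B6 to 8.21 for CYP78A9 in Col-0.

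**Figure D1:**
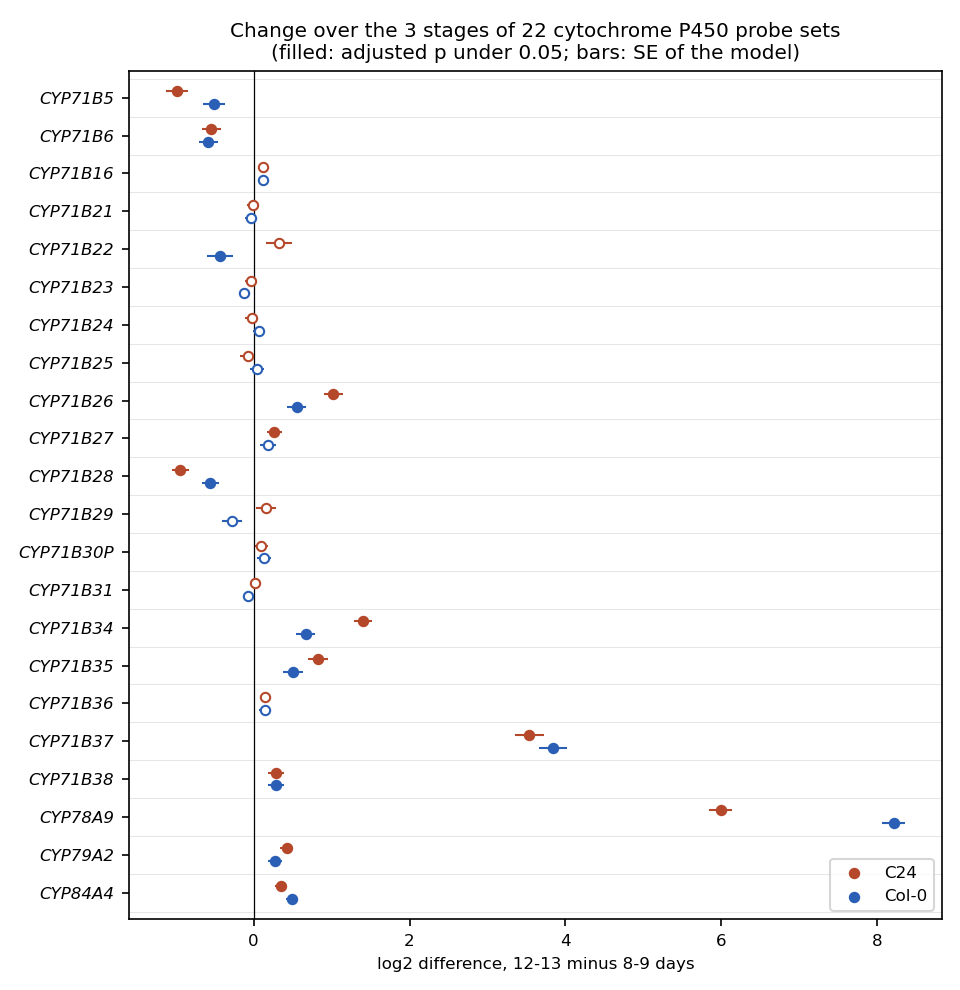
Change in log2 level from 8-9 to 12-13 days of the 22 cytochrome P450 probe sets in C24 (red, upper point) and Col-0 (blue, lower point). Filled points have an adjusted p under 0.05, open points do not, and bars are the SE of the model. CYP78A9 lies at 5.99 in C24 and 8.21 in Col-0, CYP71B37 at 3.54 and 3.84, and every other member lies between -0.99 and 1.40.

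In the first step, from 8-9 to 10-11 days, 8 members rose (24% of all probe sets did) and 1 fell (26%) in C24, and 5 rose (19.9%) and 2 fell (23.3%) in Col-0. In the second step, from 10-11 to 12-13 days, 2 rose (11.7% of all) and 3 fell (14.1%) in C24, and 5 rose (17.6%) and 3 fell (18.3%) in Col-0. The members called in the first step were 40.9% in C24, against 50% of all probe sets, and 31.8% in Col-0, against 43.3%. In the second step they were 22.7% in C24, against 25.7%, and 36.4% in Col-0, against 35.9%. CYP78A9 and CYP71B37 rose in both steps in both accessions. A change over both steps is here the level at 12-13 days less that at 8-9 days. Such a change need not run the same way in each step. CYP71B6 was lower at 12-13 than at 10-11 days in both accessions, and so was CYP71B5.

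CYP78A9 (AT3G61880), the growth-promoting member, had the largest change of the 22 in both accessions. In C24 its arrays had 5.02, 5.04 and 5.14 at 8-9 days, 8.58, 8.87 and 8.97 at 10-11 days, and 11.07, 11.01 and 11.09 at 12-13 days. In Col-0 they had 4.44, 4.65 and 4.33 at 8-9 days, 10.77, 10.26 and 11.08 at 10-11 days, and 12.75, 12.64 and 12.66 at 12-13 days. No array of one stage overlapped with those of the next in either accession, and C24 and Col-0 did not overlap at any stage. The rise over both steps was 63.6-fold in C24 and 296-fold in Col-0 (log2 changes of 5.99 ± 0.15 and 8.21 ± 0.15, limma adjusted p = 3.13e-16 and 5.31e-18). The Col-0 mean of 4.47 ± 0.16 at 8-9 days lay between the lowest and the highest 25th percentile of the arrays, so the Col-0 change can be understated.

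The accession difference of CYP78A9 changed direction between 8-9 and 10-11 days. C24 minus Col-0 was 0.59 ± 0.15 at 8-9 days (adjusted p = 0.00737), when C24 was higher, and -1.90 ± 0.15 at 10-11 days (adjusted p = 2.92e-08) and -1.63 ± 0.15 at 12-13 days (adjusted p = 1.78e-07), when C24 was lower. The change of the first step was therefore smaller in C24, 3.74 against 6.23 in Col-0, and the difference between these changes was -2.49 ± 0.21 (limma interaction, adjusted p = 4.96e-07). The changes of the second step were 2.25 in C24 and 1.98 in Col-0, and their difference of 0.27 missed the threshold. Over both steps the difference was -2.22 ± 0.21 (adjusted p = 1.12e-06). On the first principal component all C24 arrays lay above all Col-0 arrays at both 8-9 and 10-11 days, and its part in these differences was not tested.

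**Figure D2:**
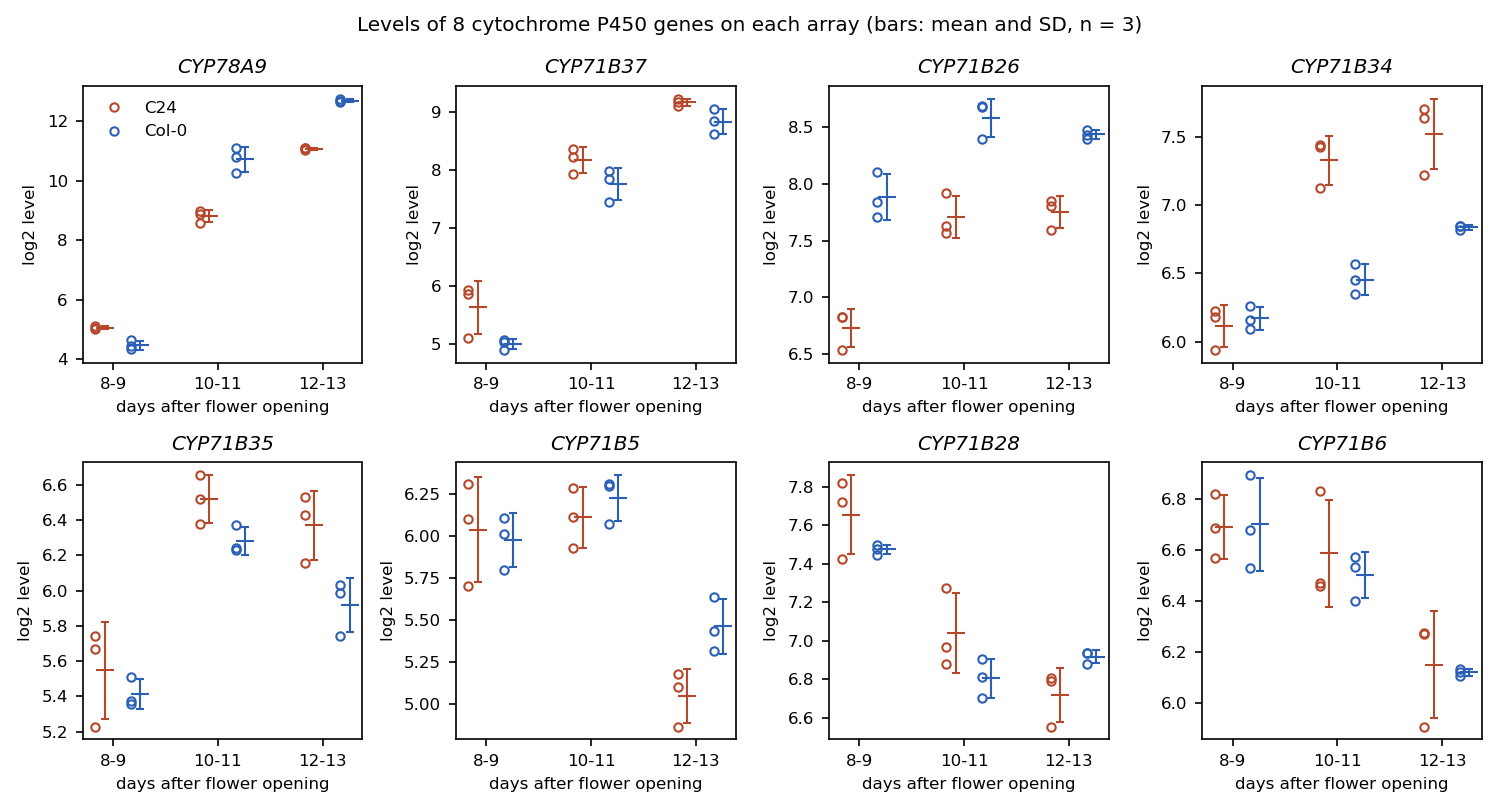
Log2 levels of 8 cytochrome P450 genes against days after flower opening, 1 circle per array, with C24 (red) to the left of Col-0 (blue) at each stage and the mean and SD of 3 arrays beside them. The axes of the panels differ. CYP78A9 reaches 11.06 in C24 and 12.68 in Col-0 at 12-13 days, CYP71B26 is lower in C24 at every stage, and CYP71B34 separates the accessions from 10-11 days on.

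CYP79A2 (AT5G05260), the aldoxime-forming enzyme, averaged 3.97 ± 0.07, 4.30 ± 0.02 and 4.40 ± 0.16 in C24 and 4.15 ± 0.11, 4.34 ± 0.04 and 4.43 ± 0.10 in Col-0 at the 3 stages. It rose over both steps by 0.42 ± 0.09 in C24 and 0.27 ± 0.09 in Col-0 (adjusted p = 0.000307 and 0.00995), but 5 of its 6 group means lay below 4.41. With replicate 1 of the latest Col-0 group left out, the Col-0 change was 0.22 (adjusted p = 0.0535).

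CYP84A4 (AT5G04330), of arabidopyrone synthesis, averaged 4.38 ± 0.07, 4.72 ± 0.04 and 4.73 ± 0.10 in C24, and 4.37 ± 0.03, 4.61 ± 0.05 and 4.86 ± 0.09 in Col-0. In both accessions all arrays at 12-13 days lay above all arrays at 8-9 days, and the changes were 0.35 ± 0.07 in C24 and 0.49 ± 0.07 in Col-0 (adjusted p = 0.000392 and 1.07e-05). In both accessions its mean at 8-9 days lay below 4.41. CYP71B6 (AT2G24180), the indole-3-acetonitrile enzyme, fell over both steps, with changes of -0.54 ± 0.12 in C24 and -0.58 ± 0.12 in Col-0 (adjusted p = 0.000684 and 0.000331).

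The C24 arrays of CYP71B6 had 6.69, 6.82 and 6.57 at 8-9 days and 6.27, 6.27 and 5.91 at 12-13 days, and the Col-0 arrays had 6.90, 6.53 and 6.68 at 8-9 days and 6.11, 6.13 and 6.12 at 12-13 days. The 2 stages did not overlap in either accession. The second step passed the test in both, with -0.44 in C24 and -0.38 in Col-0 (adjusted p = 0.0102 and 0.017). The C24 call was lost without replicate 2 at 10-11 days (-0.31, adjusted p = 0.0709) and without replicate 3 at 12-13 days (-0.31, adjusted p = 0.0752), and the Col-0 call without replicate 1 at 10-11 days (-0.35, adjusted p = 0.0657). CYP71B31 (AT3G53300), the linalool enzyme of flowers, stayed between 3.36 and 3.59 on all 18 arrays, below 4.41, and was called in no comparison.

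Between the accessions, 2 members were higher (10.3% of all probe sets were) and 1 lower (9.22%) in C24 at 8-9 days. At 10-11 days 1 was higher (9.61%) and 2 were lower (9.54%), and at 12-13 days 2 were higher (11.3%) and 3 lower (11.7%). In either direction 13.6%, 13.6% and 22.7% of the members were called at the 3 stages, against 19.5%, 19.1% and 23% of all probe sets. These shares were below or near those of all probe sets. Over the stages, 6 of the 22 members differed at 1 or more, and 40% of all probe sets did. They were CYP78A9, CYP71B26, CYP71B34, CYP71B35, CYP71B37 and CYP71B5. Every group mean of 10 other members lay below 4.41, where a difference may be understated, so the low shares are not read as a trait of P450 genes. CYP71B26 was the 1 member lower in C24 at all stages (2.71% of all probe sets were), and CYP78A9 the 1 member called in both directions (1.64% of all). The median difference of the members was -0.0034 at 8-9 days, 0.05 at 10-11 days and -0.03 at 12-13 days, against -0.02, 0.01 and -0.01 over all probe sets.

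**Figure D3:**
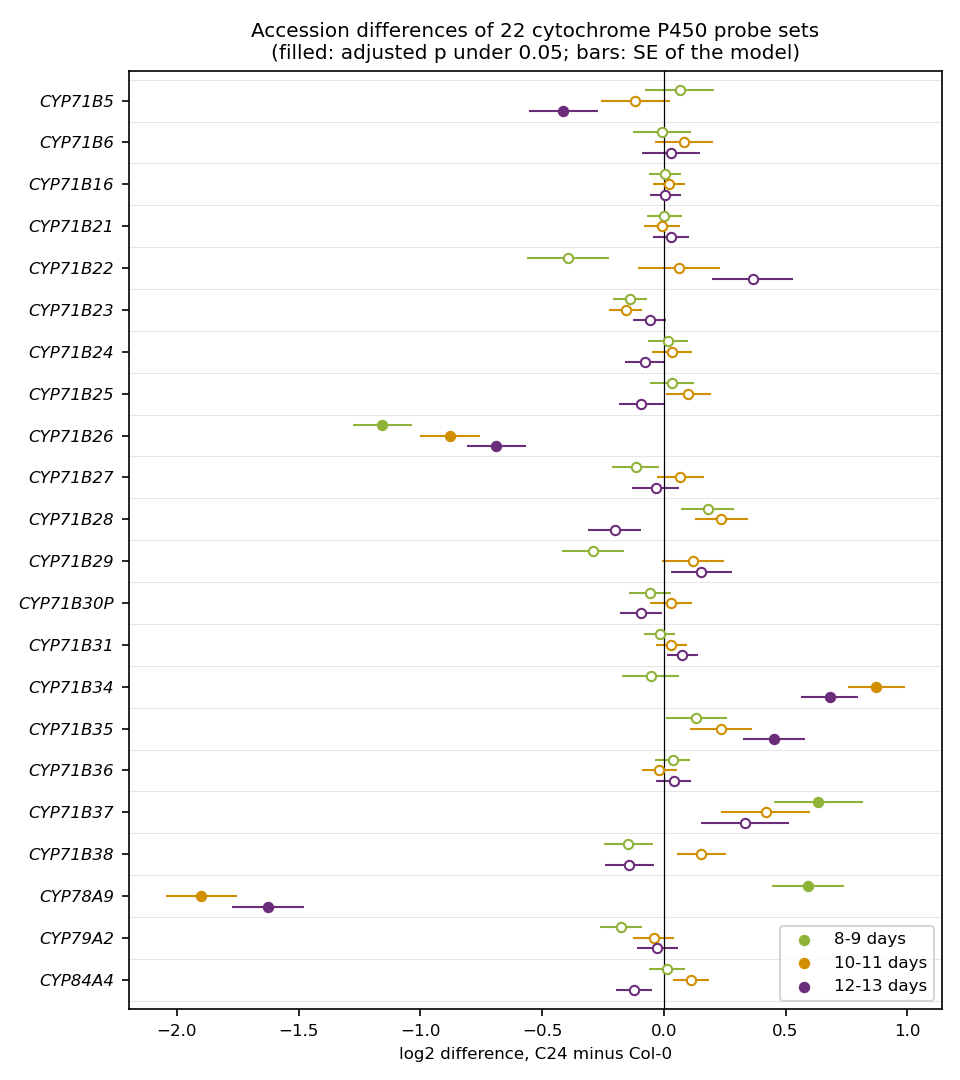
Log2 difference of C24 minus Col-0 for the 22 cytochrome P450 probe sets at 8-9 (green), 10-11 (orange) and 12-13 days (purple), with the SE of the model as bars. Filled points have an adjusted p under 0.05. CYP71B26 lies below 0 at all 3 stages, and CYP78A9 lies at 0.59, -1.90 and -1.63.

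In chromosomal position, 11 of the 22 members belong to a run of 19 P450 genes on chromosome 3, from CYP86C2 to CYP71B37, with at most 6 other genes between neighbours. In the order of the run the members are CYP71B16, CYP71B21, CYP71B22, CYP71B23, CYP71B24, CYP71B25, CYP71B26, CYP71B34, CYP71B35, CYP71B36 and CYP71B37. Those higher at 12-13 than at 8-9 days in both accessions were CYP71B26, CYP71B34, CYP71B35 and CYP71B37, 4 of 11, and 23.1% of all probe sets were. CYP71B36, which lies among them, was called in no comparison, but it lay below 4.41 in every group, where a change may be understated. Of the members before CYP71B26 all but CYP71B22 lay below 4.41 in every group, so the 2 ends of the run cannot be compared. A further 3 members (CYP71B27, CYP71B28 and CYP71B29) lie in a run of 7 P450 genes on chromosome 1, and another 3 (CYP71B5, CYP71B30P and CYP71B31) in a run of 4 on chromosome 3. Genes of such runs can be alike in sequence. All 22 probe sets carry the plain suffix _at, but whether the remaining probes are unique to 1 gene is not given in the sources used here.

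**Figure D4:**
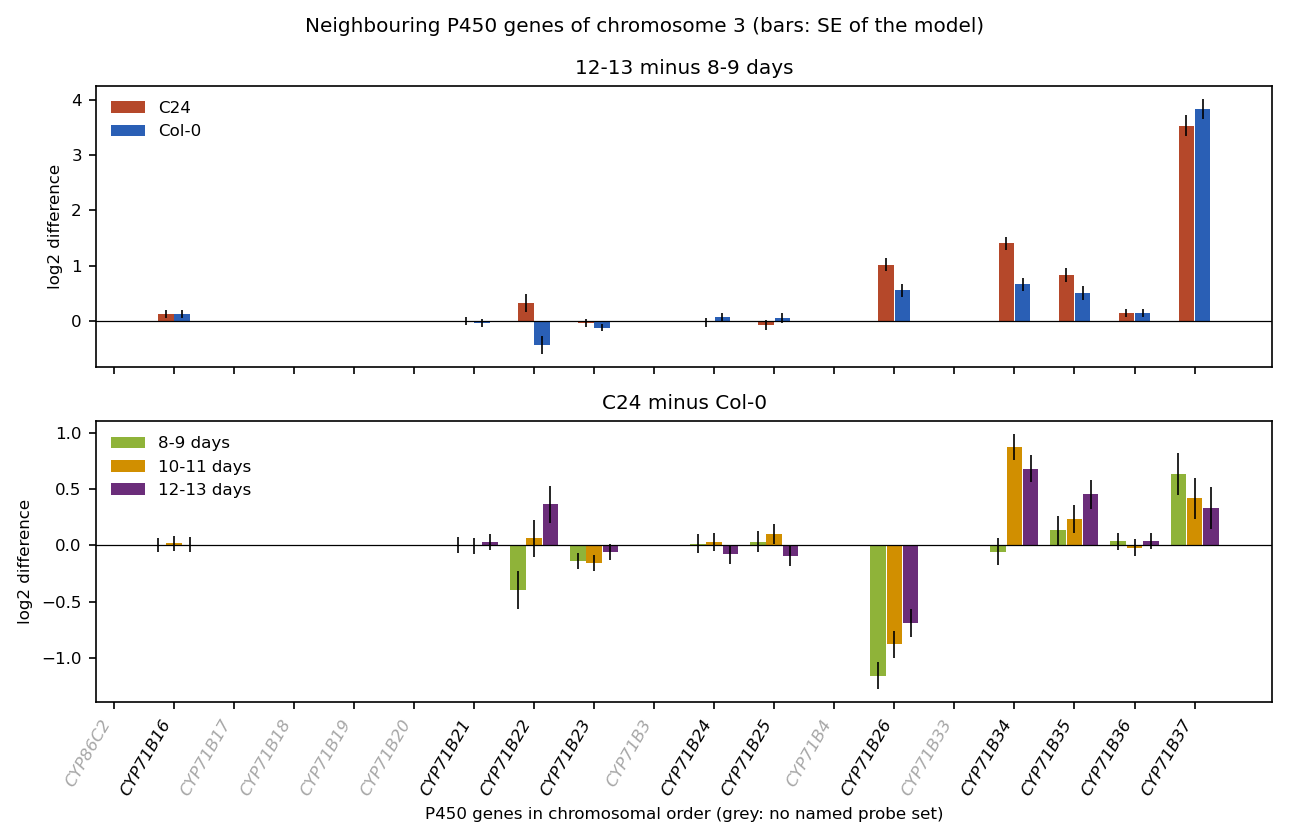
P450 genes of the chromosome 3 run in chromosomal order, with the log2 change from 8-9 to 12-13 days (upper panel, C24 red and Col-0 blue) and the log2 difference of C24 minus Col-0 at each stage (lower panel). Bars are fitted differences with the SE of the model, and genes in grey have no named probe set. CYP71B37 changes by 3.54 in C24 and 3.84 in Col-0, and CYP71B26 is lower in C24 at every stage and CYP71B34 higher in C24 at the 2 later stages.

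CYP71B37 (AT3G26330) had the second largest rise of the members. In C24 its arrays had 5.85, 5.94 and 5.10 at 8-9 days, 8.37, 8.23 and 7.92 at 10-11 days, and 9.10, 9.16 and 9.23 at 12-13 days. In Col-0 they had 5.07, 5.02 and 4.89 at 8-9 days, 7.84, 7.44 and 7.98 at 10-11 days, and 8.84, 8.61 and 9.05 at 12-13 days. The stages did not overlap in either accession, and the rise over both steps was 11.6-fold in C24 and 14.3-fold in Col-0 (3.54 ± 0.18 and 3.84 ± 0.18, adjusted p = 6.07e-12 and 1.55e-12). At 8-9 days CYP71B37 was higher in C24 by 0.63 ± 0.18 (adjusted p = 0.0195).

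That early difference of CYP71B37 depended on single arrays. Replicate 3 of C24 at 8-9 days, with 5.10, lay just above the highest Col-0 array, and without it the difference was 0.90 (adjusted p = 0.000418). The call was lost without replicate 1 of C24 (0.52, adjusted p = 0.099), without replicate 2 of C24 (0.48, adjusted p = 0.113) and without replicate 3 of Col-0 (0.58, adjusted p = 0.0632). It was also lost when the model held just the 2 groups compared (adjusted p = 0.0514) and in a test without moderation (adjusted p = 0.0595). The differences of 0.42 at 10-11 days and 0.33 at 12-13 days missed the threshold.

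CYP71B26 (AT3G26290) was lower in C24 at every stage. Its C24 arrays had 6.83, 6.83 and 6.53 at 8-9 days, 7.92, 7.63 and 7.57 at 10-11 days, and 7.59, 7.85 and 7.81 at 12-13 days. Its Col-0 arrays had 7.71, 7.84 and 8.11, then 8.69, 8.39 and 8.68, and then 8.43, 8.48 and 8.40. All C24 arrays lay below all Col-0 arrays of the same stage, with differences of -1.16 ± 0.12, -0.88 ± 0.12 and -0.69 ± 0.12 (adjusted p = 1.47e-06, 3.55e-05 and 0.000375). The gene rose in the first step, by 0.98 in C24 and 0.70 in Col-0 (adjusted p = 1.93e-06 and 0.000101), and was not called in the second step. The difference between the accessions' changes over both steps was 0.47 ± 0.17 and missed the threshold (adjusted p = 0.096).

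CYP71B34 (AT3G26300) was higher in C24 at the later stages. Its C24 arrays had 6.18, 6.23 and 5.94 at 8-9 days, 7.42, 7.44 and 7.12 at 10-11 days, and 7.22, 7.64 and 7.70 at 12-13 days. Its Col-0 arrays had 6.10, 6.26 and 6.16, then 6.57, 6.35 and 6.45, and then 6.81, 6.85 and 6.85. The accessions overlapped at 8-9 days and were apart at both later stages, when C24 was higher by 0.87 ± 0.12 and 0.68 ± 0.12 (adjusted p = 2.59e-05 and 0.000295).

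The rise of CYP71B34 in the first step was 1.21 ± 0.12 in C24 (adjusted p = 8.32e-08), and the change of 0.28 ± 0.12 in Col-0 missed the threshold (adjusted p = 0.0595). The difference between these changes was 0.93 ± 0.17 (limma interaction, adjusted p = 0.00155), and over both steps it was 0.74 ± 0.17 (adjusted p = 0.0069). In the second step CYP71B34 rose in Col-0, by 0.38 ± 0.12 (adjusted p = 0.0161, or 0.0747 without replicate 2 of Col-0 at 10-11 days), and its change of 0.19 in C24 missed the threshold. The first principal component ordered the arrays by stage. On it the C24 arrays lay above the Col-0 arrays at the earliest stage and at 10-11 days. At the latest stage the scores overlapped, from 57.7 to 62.0 in C24 and from 60.5 to 60.6 in Col-0. C24 minus Col-0 for CYP71B34 was -0.05 at the earliest stage (limma adjusted p = 0.811) and 0.68 at the latest. The part of this component in the differences of CYP71B34 was not tested.

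CYP71B35 (AT3G26310) rose in the first step, by 0.97 ± 0.13 in C24 and 0.87 ± 0.13 in Col-0 (adjusted p = 3.41e-06 and 1.47e-05). Its C24 means at the 3 stages were 5.55 ± 0.28, 6.52 ± 0.14 and 6.37 ± 0.19, and its Col-0 means 5.41 ± 0.09, 6.28 ± 0.08 and 5.92 ± 0.16. The mean of each accession was highest at 10-11 days, and the fall in the second step passed in Col-0 (-0.37 ± 0.13, adjusted p = 0.031), while the change of -0.15 in C24 missed the threshold. At 12-13 days the C24 arrays had 6.15, 6.53 and 6.43 and the Col-0 arrays 6.03, 5.74 and 5.99, without overlap, a difference of 0.45 ± 0.13 (adjusted p = 0.014). This call was lost without replicate 2 (0.37, adjusted p = 0.0749) or replicate 3 (0.42, adjusted p = 0.0509) of C24 and without replicate 2 of Col-0 (0.36, adjusted p = 0.07). The Col-0 fall was lost without replicate 1, 2 or 3 at 10-11 days, without replicate 2 at 12-13 days and in a test without moderation, with adjusted p from 0.053 to 0.14.

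Replicate 3 of C24 at 8-9 days was the lowest of its group for 7 of the 22 members, among them the 4 risers of the run, and the highest for 12, among them CYP71B28, CYP71B22 and CYP78A9. On the first principal component this array lay at -74.7, the lowest score of its group, against -71.5 and -68.9 for the other C24 arrays. Without it the C24 changes from 8-9 to 12-13 days were 0.92 for CYP71B26, 1.31 for CYP71B34, 0.67 for CYP71B35 and 3.27 for CYP71B37, and all 4 calls were kept.

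CYP71B22 (AT3G26200), earlier in the run, was called for a difference between the accessions' changes, but this call was lost under most alternatives. Its C24 arrays had 5.23, 5.23 and 5.41 at 8-9 days and 5.67, 5.38 and 5.80 at 12-13 days, a change of 0.32 ± 0.17 that missed the threshold (adjusted p = 0.104). Its Col-0 arrays had 5.53, 5.78 and 5.75 at 8-9 days and 5.03, 5.75 and 4.97 at 12-13 days, a change of -0.43 ± 0.17 (adjusted p = 0.0317). The Col-0 groups overlapped through replicate 2 at 12-13 days, and the spread of that group (SD 0.44) was the widest of the gene. Without that array the Col-0 change was -0.69.

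The difference between the accessions' changes of CYP71B22 was 0.76 ± 0.24 (limma interaction, adjusted p = 0.0473). It was lost under 15 of 26 alternatives, where its adjusted p reached 0.118, and with the replicate number as a block the adjusted p was 0.0615. The Col-0 fall itself was lost under 7 of 26 alternatives, 4 of them with 1 Col-0 array left out (-0.29 to -0.40, adjusted p = 0.0836 to 0.167).

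Outside this run, CYP71B28 (AT1G13090) fell in both accessions. Its C24 arrays had 7.42, 7.72 and 7.82 at 8-9 days, 6.97, 7.28 and 6.88 at 10-11 days, and 6.55, 6.79 and 6.81 at 12-13 days. Its Col-0 arrays had 7.45, 7.50 and 7.48, then 6.81, 6.90 and 6.70, and then 6.94, 6.88 and 6.94. The 8-9 and 12-13 day arrays did not overlap, and the changes over both steps were -0.94 ± 0.11 in C24 and -0.56 ± 0.11 in Col-0 (adjusted p = 5.27e-07 and 0.000216). In Col-0 the level fell in the first step (-0.67, limma adjusted p = 5.35e-05) and not further, with means of 6.81 at 10-11 days and 6.92 at 12-13 days. In C24 most of the fall lay in the first step (-0.61, limma adjusted p = 0.000116). The further fall in C24 in the second step (-0.32, adjusted p = 0.0349) was lost under 6 of 26 alternatives, and was -0.21 without replicate 2 of C24 at 10-11 days (adjusted p = 0.2).

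Its neighbour CYP71B29 (AT1G13100) fell in Col-0 in the first step, with a change of -0.56 ± 0.13 (adjusted p = 0.00121). Its Col-0 arrays had 5.18, 5.26 and 4.93 at 8-9 days, 4.45, 4.57 and 4.65 at 10-11 days, and 4.82, 5.09 and 4.62 at 12-13 days. The C24 means were 4.83 ± 0.07, 4.68 ± 0.06 and 5.00 ± 0.26, and no C24 change and no accession difference of this gene passed.

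CYP71B5 (AT3G53280) fell late in both accessions. Its C24 arrays had 6.10, 6.31 and 5.70 at 8-9 days, 6.29, 6.11 and 5.93 at 10-11 days, and 5.10, 5.18 and 4.87 at 12-13 days. Its Col-0 arrays had 6.11, 5.80 and 6.01, then 6.30, 6.31 and 6.07, and then 5.64, 5.44 and 5.31. In both accessions the 12-13 day arrays lay below all earlier ones, and the changes of the second step were -1.06 ± 0.14 in C24 and -0.76 ± 0.14 in Col-0 (adjusted p = 1.61e-05 and 0.00031).

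At 12-13 days CYP71B5 was lower in C24, without overlap, by a difference of -0.41 ± 0.14 (adjusted p = 0.0426). This call was lost under 8 of 26 alternatives, among them without replicate 3 of C24 (-0.32, adjusted p = 0.174) and without replicate 1 of Col-0 (-0.33, adjusted p = 0.149) at 12-13 days. The difference between the accessions' changes over both steps, -0.48 ± 0.20, missed the threshold (adjusted p = 0.151), and was -0.65 (adjusted p = 0.0283) without replicate 3 of C24 at 8-9 days. CYP71B30P and CYP71B31, its neighbours on the chromosome, were called in no comparison.

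For 10 members every group mean lay below 4.41, so that none of them is shown to lie above background in these seeds. They are CYP71B16, CYP71B21, CYP71B23, CYP71B24, CYP71B25, CYP71B27, CYP71B30P, CYP71B31, CYP71B36 and CYP71B38, and over all 18 arrays their values ran from 3.25 to 4.52. Their group means differed by 0.43 at most within a gene, and 8 of the 10 were called in no comparison.

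The other 2, CYP71B38 (AT3G44250) and CYP71B27 (AT1G13070), gave small calls. CYP71B38 had 3.86 ± 0.04 at 8-9 days and 4.15 ± 0.14 at 12-13 days in C24, and 4.01 ± 0.05 and 4.30 ± 0.13 in Col-0, with changes of 0.29 ± 0.10 in each (adjusted p = 0.0185 and 0.0198). CYP71B27 had 4.11 ± 0.14 and 4.37 ± 0.14 in C24, a change of 0.27 ± 0.10 (adjusted p = 0.0241) with overlapping arrays, and its change of 0.18 in Col-0 missed the threshold. Calls of both were lost with single arrays left out, with adjusted p up to 0.131.

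For the difference between the accessions' changes over both steps, 2 members were called with a positive value, CYP71B34 and CYP71B22 (4.73% of all probe sets were), and 1 with a negative value, CYP78A9 (5.9%), which is 13.6% of the members against 10.6% of all. In the first step CYP71B34 was called with a positive value (3.88% of all) and CYP78A9 with a negative one (4.24%), 9.09% of the members against 8.12% of all. In the second step limma called none of the 22, against 3.68% of all probe sets with a positive and 4.59% with a negative value (8.27% in all), with 2 at an unadjusted p under 0.05 and none in a test without moderation.

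Genes that work with P450 enzymes were mostly unnamed by the annotation. Of 89 genes on 7 lists of P450 partners, such as hormone synthesis, surface polymers and glucosinolates, 9 had a named probe set, and the abscisic acid and gibberellin lists had none. Of the 90 symbols on 12 lists of P450 roles, 4 were members, CYP78A9, CYP79A2, CYP84A4 and CYP71B31. On the list of 9 redox partners, only AT3G02280, which encodes a diflavin reductase, was named. It rose over both steps by 0.37 in C24 and 0.75 in Col-0 and was higher in C24 at 8-9 days by 0.39. Of 4 named glucosinolate genes 3 rose over both steps in each accession and AT2G25450, a dioxygenase gene, fell. Of all probe sets 29.4% rose in C24 and 30.1% in Col-0. UGT74B1, the glucosyltransferase that acts after the CYP79 and CYP83 enzymes, rose by 0.40 in C24 and 0.95 in Col-0, and AOP1 by 0.97 and 0.89. Between the accessions, 1 of these 4 genes was lower in C24 at 8-9 days, 1 at 10-11 days and 2 at 12-13 days. None was higher, and 2 were called with a negative interaction over both steps. Both named flavonoid genes fell in each accession, BAN with changes of -2.65 in C24 and -4.34 in Col-0 and DFR with -1.65 and -2.37. On the surface polymer list FACT, an acyltransferase, rose by 7.36 in C24 and 6.58 in Col-0, and on the brassinosteroid list the receptor gene BRL1, at 3.52 to 4.01 on all arrays, was not called over both steps.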

How the data were processed

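RNA of seeds was measured on Affymetrix ATH1 arrays. The authors deposited log2 levels per probe set and, per the labels' design text, kept only probes matching both genomes and TAIR10 gene models, and probe sets of 3 probes or more. The submitters' processing notes name the same build. How background was corrected and arrays normalized is not known here. All 18 columns were matched to samples by name and used as deposited, and no array pair was identical.

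The 11 control probe sets were left out and 19755 tested with limma 3.58.1 in R 4.3.3, in a model of 6 group means with 12 residual and 5.8 prior degrees of freedom. The design named 10 comparisons, and the interactions of the first and second step were added after values were seen, making 2 more. With 3 arrays against 3 an exact permutation test cannot go below 0.1. The fit was tested on simulated data. The members and lists were chosen with earlier results of these data known. The planned symbol pattern would have left out CYP71B30P, which the rule used here holds. Named genes were members on a role list, the 8 highest and 8 lowest called members of a comparison, members called alike at all stages or for the interaction, and the 5 highest mean levels. Other members were named after their values were seen. Apart from naming the 5 highest, levels of different probe sets were not compared. Alternatives were a trended and robust prior, a second quantile normalization, centred arrays, the dimmest 30% left out, the compared groups alone, the replicate number as a block, controls kept, no moderation, and each array left out. Counts without CYP71B30P were an alternative chosen after seeing the data.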

Additional observations from a re-analysis of the deposited data

Results flagged for a closer look

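For 3 members the change over the stages differed between the accessions by limma's interaction test. Between 8-9 and 12-13 days, the C24 change less the Col-0 change was -2.22 for CYP78A9, 0.74 for CYP71B34 and 0.76 for CYP71B22. Between 8-9 and 10-11 days it was -2.49 for CYP78A9 and 0.93 for CYP71B34. The values for CYP78A9 and CYP71B34 passed under all 26 alternatives, and that of CYP71B22 was lost under 15 of them.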

How the results depend on the processing

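Over 12 comparisons the members had 69 calls, of which 52 were kept under every alternative that gave a value and 17 were lost under 1 or more, 7 of these only with an array left out. No call changed sign. Counts of calls without CYP71B30P were the same, which was fixed in advance, since this member was called in no comparison. Deviations of same-numbered arrays of different groups correlated between -0.21 and 0.21 (median 0.02). Those of differently numbered arrays correlated between -0.24 and 0.23 (median -0.0027). The replicate number was not used to pair the samples, and these values cannot tell which pools shared plants. As a block the replicate number left 1 member higher for the interaction over both steps and changed no other call. Without the dimmest 30% of probe sets, 5 members rose over both steps in C24, 5 in Col-0, 5 in the first step in C24 and 3 in the second step in Col-0, since dim members were then not tested. When the model held just the groups compared, 1 member was higher and 2 lower in C24 at 8-9 days, 3 rose in the second step in Col-0, and 1 was higher for the interaction over both steps. Without moderation, 7 of the 69 calls were lost and 6 gained. Then 1 member was higher in C24 at 8-9 days and 1 for that interaction. In either direction 4 members differed between the accessions at 10-11 days and 4 at 12-13 days. Over both steps 14 were called in each accession, and in the second step 4 in C24 and 6 in Col-0. Shares of all probe sets under the alternatives are not given here, so counts under them are not read as a trait of P450 genes. A second quantile normalization lost 5 calls and gained 1, centred arrays lost 2 and gained 6, and the trended and robust prior gained 5. The cause of these changes was not tested. With single arrays left out, 1 to 2 members were higher and 1 to 2 lower in C24 at 8-9 days, 1 to 2 higher at 10-11 days and 1 to 2 higher at 12-13 days. In the second step 2 to 4 rose and 1 to 3 fell in C24, and 3 to 6 rose and 1 to 3 fell in Col-0. For the interaction over both steps 1 to 3 were higher and 1 to 2 lower. The call of CYP71B5 as lower in C24 at 12-13 days was lost with 6 different arrays, each left out in turn. Calls over both steps were lost in C24 for CYP71B27 with 4 arrays and for CYP71B38 with 2. In Col-0 they were lost for CYP71B38 with 4 arrays, for CYP71B22 with 4 and for CYP79A2 with 1. Levels under 4.41 in every group limit what can be said of 10 members, and levels under it in some groups limit 2 others, CYP79A2 and CYP84A4.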
